A study of Mus musculus with 2 samples.

Results

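The Wnt pathway was followed through 10 genes, the ligand genes Wnt4, Wnt5a, Wnt5b and Wnt11, the R-spondin receptor genes Lgr5 and Lgr4, the transcription factor genes Lef1 and Tcf7, and the feedback genes Axin2 and Nkd2. Their probes were all non-control spots that carry a RefSeq transcript of a member gene, which gave 14 probes for the 10 genes, of 27229 named probes for 20657 genes on the array. Each of the 10 genes had a probe that the scanner software marked well above background in A-CEBP and in GFP cells, and 13 of the 14 probes were marked so.

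RNA came from 2 stable lines of ATDC5, a chondrogenic mouse line that lays down cartilage matrix in culture once given insulin, transferrin and selenite (ITS). One line carried A-CEBP and the other GFP, both under doxycycline (DOX) control. A-CEBP blocks C/EBP transcription factors by forming dimers with them that cannot bind DNA. Both lines received 2 µg/mL DOX for 2 days and ITS for 3 weeks, per the labels, so DOX and ITS are shared by both groups and only the transgene differs by label. Each group held 1 sample and 1 array, whether each line was 1 clone is not stated in the labels, and expression of the transgenes was not checked. There was no spread between cultures to set a difference against, so no p-value was computed and no difference had a replicate check.

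Wnt proteins are secreted lipid-modified ligands. In the canonical branch they bind Frizzled and LRP receptors, beta-catenin escapes destruction and enters the nucleus, and TCF/LEF factors turn on targets that include the pathway's own inhibitors. In the noncanonical branch, used by ligands such as Wnt5a, cell polarity and calcium signals are set without beta-catenin. In the growth plate Wnt signals help to set how fast chondrocytes divide, line up in columns and enlarge.

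The member genes were split in direction, and the receptor gene Lgr5 and the ligand gene Wnt4 stood at the ends. Lgr5 was 2.42-fold higher in A-CEBP cells and Wnt4 was 1.99-fold lower. In such bulk RNA, fewer cells of a type and less RNA per cell cannot be told apart. Wnt5a and Axin2 were 1.54-fold and 1.59-fold higher. The other 6 genes were within 1.5-fold on the probe that stands for the gene, and Tcf7 had a dimmer probe that went the opposite way, 3.06-fold lower. Differences are A-CEBP minus GFP on the log2 scale throughout, after the 75th percentile of each array was subtracted, and where a gene had several probes the brightest probe detected in both samples stands for it.

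By count, 1 of 10 member genes was 2-fold or more apart, against 2.96% of the 13860 genes measured on both arrays. That 1 gene was higher, as were 1.26% of all genes, and none was lower by this size, as were 1.7%. At 1.5-fold, 4 members were apart (background 8.51%), 3 of them higher (background 4.7%) and 1 lower (background 3.8%). With 7 of 10 above 0, against 59.1% of all genes, and 3 below 0, against 40.9%, the direction of the members was close to that of the array as a whole. These counts take Tcf7 by its brighter probe. With the mean of probes, 6 members were above 0 and 4 below, and 2 were at least 1.5-fold lower. By the brightest probe, the median difference of the members was 0.36, beside 0.0455 over all genes. With the mean of probes it was 0.26, beside 0.041 over all genes. Spike-in spots had a median difference of -0.22, so scaling on them raises every difference by that much and the median of all genes to 0.27. The members were chosen with earlier results of these data known, so these counts describe them and support nothing more.

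Among the ligands, Wnt4 was the only member lower in A-CEBP cells. Wnt4 is known in chick to speed the maturation of cartilage and in mouse for its part in kidney and gonad development. Its brighter probe read 747 intensity units in A-CEBP cells, against 1429 in GFP cells, a log2 difference of -0.99. Its other probe read 302 units in A-CEBP cells and 467 in GFP cells, a difference of -0.68. Both Wnt4 probes were lower in A-CEBP cells, and each difference was larger than the error that the scanner's error model gives it, 0.20 and 0.21. Of all measured genes, 1.72% had a lower difference than Wnt4.

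Wnt5a, the leading ligand of the noncanonical branch, which orients growth plate chondrocytes, read 3723 units in A-CEBP cells and 2331 in GFP cells. Its difference of 0.62 was about as far from 0 as that of the dimmer Wnt4 probe, in the other direction, and 4.13% of genes had a higher one. Wnt5b, its closest relative, which in mouse also acts on chondrocyte division and hypertrophy, read 3459.5 units in A-CEBP cells and 2622 in GFP cells. That difference was 0.35. The close relatives Wnt5a and Wnt5b thus stood on the same side of 0, each on 1 probe.

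Wnt11, known for its part in kidney branching, was dim on both arrays, with 93.6 units in A-CEBP cells and 70.0 in GFP cells. The lowest spots that counted as well above background lay at 24.8 units on the A-CEBP array and 32.9 on the GFP array. Its difference of 0.37, with a scanner error of 0.27, came to 0.09 with normexp on the median spot signal, so its size depended on the processing.

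The R-spondin receptors parted. Lgr5, known as a marker of stem cells in the gut and hair follicle and as a target of beta-catenin, read 4834 units in A-CEBP cells and 1926 in GFP cells. Its difference was 1.27 with a scanner error of 0.20, on 1 probe with 1 spot, and 0.491% of all measured genes had a higher one. Lgr4, the widely expressed relative, read 103 units in A-CEBP cells and 112 in GFP cells. Its difference of -0.18 was smaller than its scanner error of 0.25, and it turned to 0.04 with scaling on spike-in spots. The Lgr5 difference thus exceeded its measurement error, and that of Lgr4 did not.

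The TCF/LEF factor genes gave the least settled values. Lef1, whose protein binds DNA with beta-catenin and is itself a target, read 1046 units in A-CEBP cells and 894 in GFP cells, and its difference of 0.17 was under its scanner error of 0.20. Tcf7, which encodes TCF1, had probes that disagreed. The brighter read 455 units in A-CEBP cells and 339 in GFP cells, a difference of 0.37. The dimmer read 42.1 units in A-CEBP cells and 124 in GFP cells, a difference of -1.62 with a scanner error of 0.31. That difference came to -0.77, inside 2-fold, with normexp on the median spot signal, so its size depended on the processing. Before background subtraction the median pixel of the dimmer spot was 119 in A-CEBP cells, over a local background of 41.0, and 198 in GFP cells, over 43.0.

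The gap between the Tcf7 probes was 1.99 on the log2 scale, against a median of 0.13 among the 3601 genes with several measured probes. A gap at least as wide was found in 3 of those genes, Tcf7 included (0.0833%). Both probes carry the same RefSeq transcript, NM_009331, and which part of it each one reads was not determined, since the files hold no probe sequence. No direction is therefore given for Tcf7 as a gene, and the mean of its probes was -0.62.

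Axin2, a scaffold of the complex that destroys beta-catenin and the textbook feedback target of the canonical branch, read 135 units in A-CEBP cells and 81.8 in GFP cells on its measured probe. The difference was 0.67, with a scanner error of 0.26, and 3.53% of genes had a higher one. It came to 0.28 with normexp on the median spot signal. The other Axin2 probe was not well above background on either array, at 20.5 units in A-CEBP cells and 19.6 in GFP cells, and gives no fold. The Axin2 difference thus rested on 1 dim probe.

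Nkd2, whose protein binds Dishevelled and dampens Wnt signals, read 4467 units in A-CEBP cells and 5321 in GFP cells, a difference of -0.31. Its second probe read 1323 units in A-CEBP cells and 1344 in GFP cells, a difference of -0.077. Neither Nkd2 probe was 1.5-fold apart, and the second turned to 0.15 with spike-in scaling. The canonical feedback genes Axin2 and Nkd2 were thus on opposite sides of 0.

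**Figure D1:**
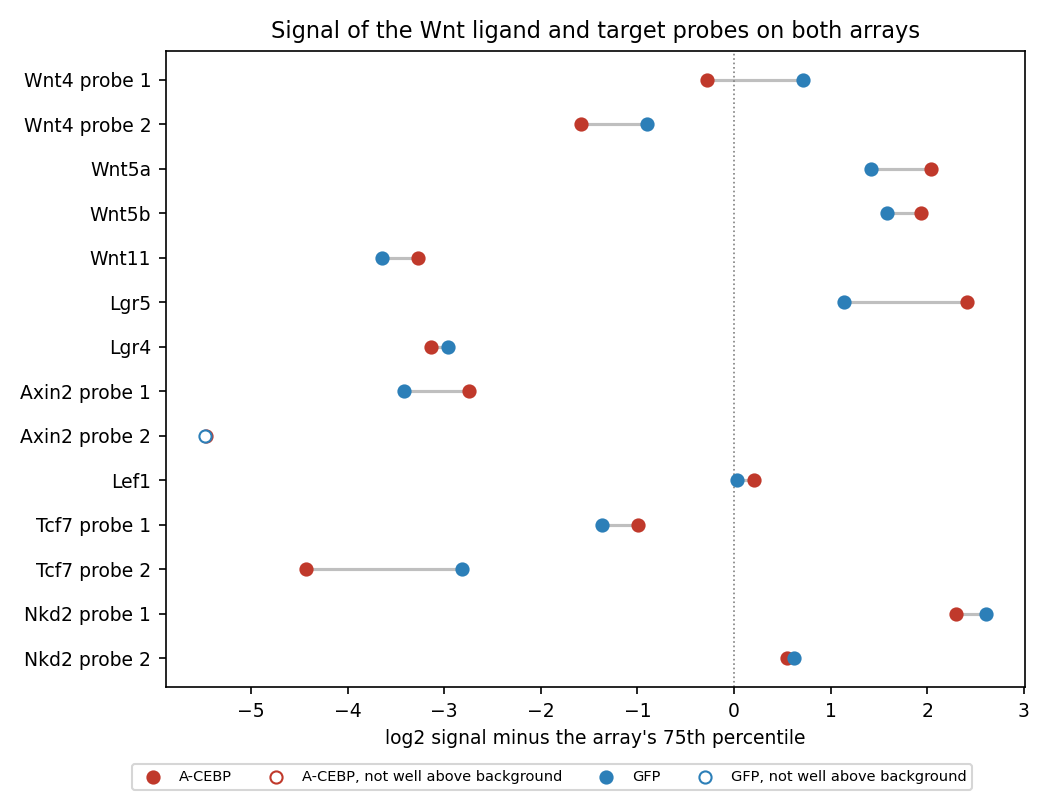
Signal of the 14 member probes, as log2 signal minus the array's 75th percentile on the horizontal axis, for A-CEBP (red) and GFP (blue); open circles were not well above background. Each point is 1 array and levels of different probes are not comparable. Lgr5 and the dimmer Tcf7 probe (probe 2) show the widest gaps, in opposite directions.

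**Figure D2:**
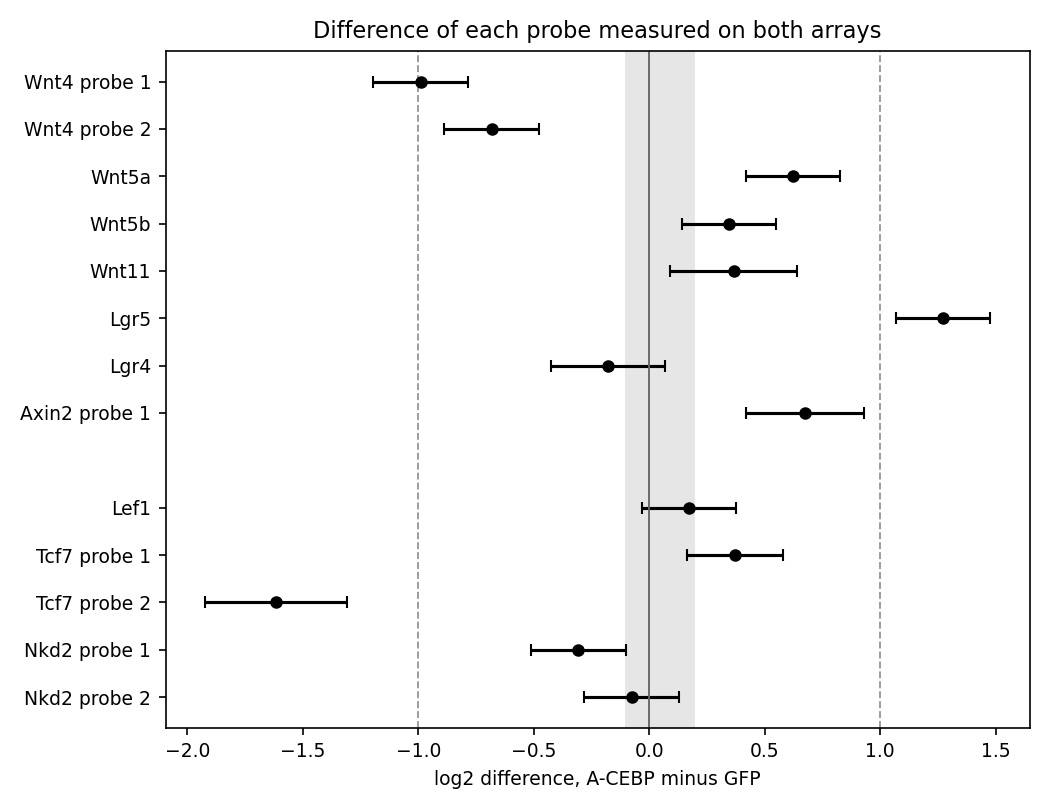
Log2 difference, A-CEBP minus GFP, of the 13 member probes well above background on both arrays; bars are the scanner model's error, dashed lines mark 2-fold, and the grey band spans the middle quartiles of all 13860 genes, -0.10 to 0.19. Lgr5 at 1.27 and the dimmer Tcf7 probe at -1.62 lie past 2-fold, and Wnt4 at -0.99 lies just inside it.

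The scanner error of the 13 measured probes ran from 0.20 to 0.31. The difference was larger than that error for 8 of the 10 genes, all but Lgr4 and Lef1, and larger than 2 times the error for 4, Lgr5, Wnt4, Axin2 and Wnt5a. Each member probe had 1 spot. Replicate spots of 291 other probes had an SD of the difference of 0.11, and different probes of a gene an SD of 0.19. These errors cover the measurement and not differences between cultures.

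The genes closest to Lgr5 in signal over the 2 arrays were Slc16a3, Adm and Cd34, with differences of 1.25, 1.38 and 1.43. Those closest to Wnt4 were Slc6a2, Lrig1 and Rad51b, at -0.86, -0.94 and -0.91. Likeness was the Euclidean distance over 2 log2 signals, at most 0.17 among these 6 genes, and since probes differ in brightness for the same amount of RNA it describes the arrays only.

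Promoter letters were read to show what lies next to the starts of member genes. RefSeq sequences (GRCm38.p6) were matched for 8 of the 10 members, with 15 starts, and Wnt5a and Lgr5 were not matched. In the 250 bases before each start, CTTTGA, the core of the TCF/LEF site, was searched on both strands. It was found at 3 of the 15 starts (20.0%), against 13.8% of 32851 promoters of the same length. TTGCNNAA, a form of the C/EBP site, was found at 1 of 15 (6.67%), against 9.56%. No member window held both motifs. A match is a description of letters and not a bound site. The 100 bases before the start are printed 5′ to 3′ on the gene's strand for the 3 windows with a match close to the start, and for Axin2 and Wnt4, which had no match to either motif, the first as the feedback target and the second as the lower ligand. Capitals mark the matches.
Wnt11, chr7:98835012-98835111, plus strand, TCF/LEF match on the opposite strand: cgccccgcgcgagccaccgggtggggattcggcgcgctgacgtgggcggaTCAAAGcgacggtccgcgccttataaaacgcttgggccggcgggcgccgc
Wnt5b, chr6:119449387-119449486, minus strand, TCF/LEF match on the gene's strand: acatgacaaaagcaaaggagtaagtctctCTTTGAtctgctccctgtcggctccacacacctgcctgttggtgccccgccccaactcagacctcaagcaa
Lgr4, chr2:109917547-109917646, plus strand, C/EBP match: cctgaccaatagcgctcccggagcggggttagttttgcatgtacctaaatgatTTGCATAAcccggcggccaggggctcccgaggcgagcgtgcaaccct
Axin2, chr11:108920249-108920348, plus strand, no match: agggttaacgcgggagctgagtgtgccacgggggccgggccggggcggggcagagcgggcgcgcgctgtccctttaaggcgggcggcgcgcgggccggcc
Wnt4, chr4:137277535-137277634, plus strand, no match: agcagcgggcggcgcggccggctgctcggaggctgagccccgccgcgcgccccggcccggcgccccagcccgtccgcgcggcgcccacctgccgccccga

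The Wnt5b window belongs to 1 of its 3 starts, and the other 2 held no match. The third TCF/LEF case was 1 of the 4 starts of Lef1, with 2 matches 115 to 120 and 175 to 180 bases before it. The genes with a TCF/LEF match, Wnt11, Wnt5b and Lef1, differed by 0.37, 0.35 and 0.17, and Lgr4, with the C/EBP match, by -0.18.

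Around the members, 111 further genes of the pathway had a named probe and 85 were measured on both arrays. Of these 85, 5 were at least 2-fold higher in A-CEBP cells (background 1.26%) and 1 was at least 2-fold lower (background 1.7%). Above 0 lay 61 (71.8%, against 59.1% of all genes). The median was 0.17, beside 0.36 for the 10 members and 0.0455 for all genes. The lists share some genes and were fixed with earlier results of these data known.

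Most ligand genes had no level. Of 19 Wnt genes, 10 were not well above background on either array and 8 were measured on both. Wnt7b was well above background in A-CEBP cells only. None of the 8 was 2-fold apart (background 2.96%). All but Wnt4 lay above 0 (87.5%, against 59.1% of all genes), with a median of 0.36. Outside the members, Wnt9a, which helps to form joints, differed by 0.61. Without the detection filter the median of the list was 0.0073, since dim probes then enter. Among genes that make or remove active ligand, Porcn, which adds the lipid, differed by -0.49, Wls, which carries Wnts to the surface, by -0.14 (above 0 with spike-in scaling), and Notum, which strips the lipid off, by 0.65.

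Of 12 measured Frizzled, LRP and Kremen genes, 10 were above 0 in difference (83.3%, against 59.1% of all genes), with a median of 0.39. The largest were Fzd8 at 0.91, Fzd7 at 0.66, with its other probe at 0.36, and Fzd2 at 0.59. None of the 12 was 2-fold apart (background 2.96%). Kremen2, a co-receptor of the Dkk inhibitors, was well above background in GFP cells only and at least 2.02-fold lower in A-CEBP cells. For such a bound the dim reading is raised, where it lies lower, to the lowest detected probe of its array.

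Noncanonical and planar polarity genes had a median of 0.30 over 14 measured genes, 11 of them above 0 (78.6%, against 59.1%). Celsr1, an atypical cadherin of planar polarity, was 2.86-fold lower in A-CEBP cells on 1 probe, and its relative Celsr3, seen in GFP cells only, was at least 2.35-fold lower. Celsr2 differed by 0.89 on its brighter probe and by -0.065 on the other. Daam2, a formin that Dishevelled binds, differed by 0.84 and Nfatc2, a calcium-regulated transcription factor, by 0.74. Ror2, a receptor for Wnt5a picked after its value was seen, differed by 0.52. The Celsr and Nfatc2 probes were dim, with Celsr1 at a scaled log2 signal of -3.48 in A-CEBP cells and -1.96 in GFP cells. Nfatc2 lay at -2.76 in A-CEBP cells and -3.50 in GFP cells. The brighter Celsr2 probe lay at -2.95 and -3.83 and gave the only Celsr value above 0. No direction is therefore given for the Celsr family.

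In the R-spondin module Lgr6, the third receptor, was 2.47-fold higher in A-CEBP cells, at a scaled log2 signal of -2.98 in A-CEBP cells and -4.29 in GFP cells, where the dimmest probe well above background lay at -4.73. Of the ligands, Rspo1 differed by -0.73 and Rspo2 by 0.23. The ligase gene Rnf43, whose product removes Frizzled receptors, differed by 0.37. Lgr5 and Lgr6 were the 2 of 8 measured genes of the module that passed 2-fold, both higher (background 1.26%). The median was 0.14, and 5 of the 8 lay above 0 (62.5%, against 59.1% of all genes).

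Most genes of the cytoplasmic machinery differed little. The 18 measured genes included the beta-catenin gene Ctnnb1, Apc, Axin1 and the Gsk3 and Dishevelled genes. None of the 18 was 1.5-fold apart (background 8.51%), and the median was 0.021. Among the 18, the farthest from 0 were Dact1, which binds Dishevelled, at 0.49, Gsk3a at 0.29 and Btrc at 0.25, and the probes of Gsk3b ran from -0.038 to 0.55. Dact2, a relative of Dact1 seen in GFP cells only, was at least 1.64-fold lower in A-CEBP cells. Of 13 TCF/LEF factors and nuclear partners none was 2-fold apart on the probe that stands for the gene (background 2.96%). Pygo1, a beta-catenin co-activator, was at 0.75. Tcf7l1, a TCF factor that often represses, and Ctnnbip1, which blocks beta-catenin from TCF, were each at 0.53.

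The list of target and feedback genes had 3 of 20 measured genes at least 2-fold higher in A-CEBP cells, against 1.26% of all genes. These were Lgr5, the cyclin D1 gene Ccnd1 (1.13) and the helix-loop-helix inhibitor gene Id2 (1.02). Downward, 0 of 20 passed 2-fold, against 1.7% of all genes. Ccn5, a matricellular protein gene, differed by -0.70 and Fgf9 by 0.66. The median was 0.34 with 14 above 0 (70.0%, against 59.1%). Ccnd1 and Id2 also respond to other growth signals and to BMPs. Of 6 measured secreted inhibitors, 2 were at least 2-fold higher, Frzb at 1.24 and Sfrp4 at 1.00, against 1.26% of all genes. Sfrp2, Dkk1 and Wif1 differed by 0.45, 0.32 and 0.17. Id2, Sfrp4 and the bound of Kremen2 lay just past 2-fold.

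**Figure D3:**
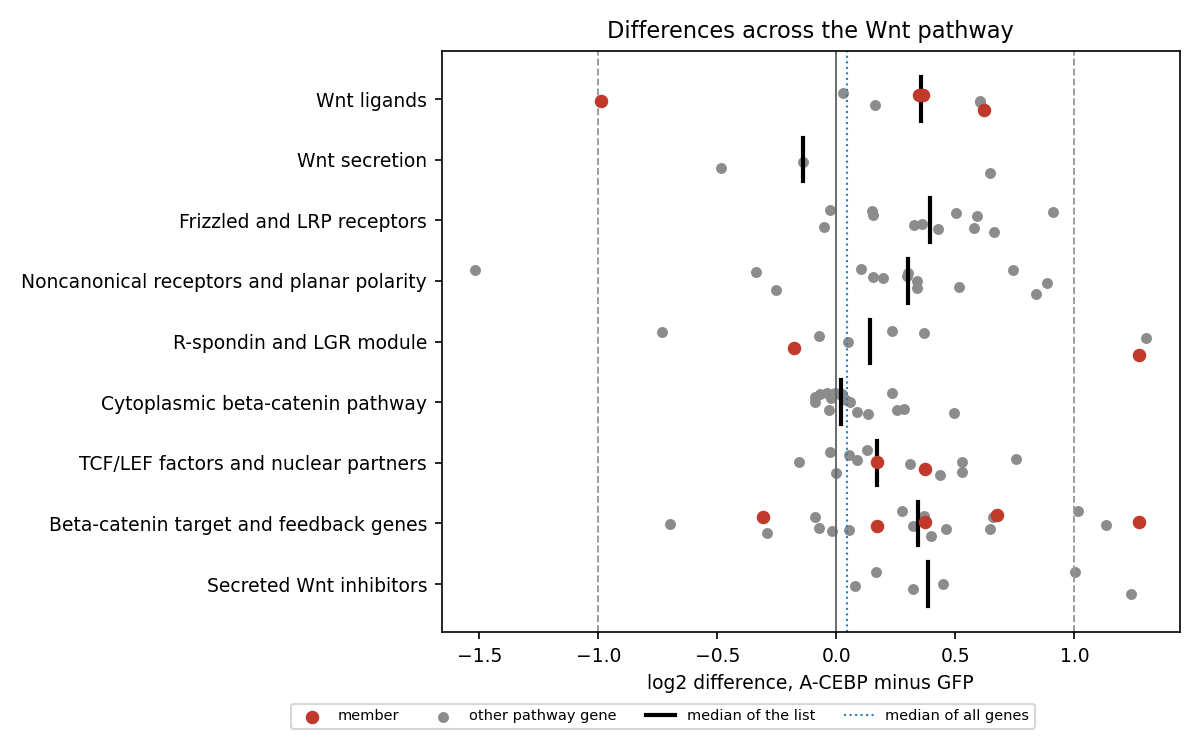
Log2 difference, A-CEBP minus GFP, of every pathway gene measured on both arrays, by list; red points are members, grey points other genes, black bars list medians, the dotted line the median of all genes and dashed lines 2-fold. The cytoplasmic genes cluster near 0, while Lgr5, Lgr6, Frzb, Ccnd1, Id2 and Sfrp4 lie past 2-fold higher and Celsr1 past 2-fold lower.

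Markers of the labelled cell type were present and mostly higher in A-CEBP cells. All 11 chondrocyte markers were well above background on both arrays. Of the 11, 9 were above 0 (81.8%, against 59.1% of all genes), with a median of 0.61, beside 0.0455 for all genes. Their summed linear signal was 495 times the array's 75th percentile in A-CEBP cells and 376 times in GFP cells, of which Col2a1 made up a large part. Among 7 hypertrophic markers the summed signal was 358 in A-CEBP cells and 377 in GFP cells, the lower sum resting on Spp1 (-0.40), without which it was 167 in A-CEBP cells and 126 in GFP cells. Of these 7 genes 5 were above 0 (71.4%, against 59.1% of all genes), with a median of 0.37. Among them were Ihh at 1.56, Col10a1 at 0.97 and Alpl at 0.83, and Mmp13 was at -1.07. The part of chondrocyte content in the Lgr5 and Wnt5a differences was not tested.

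Markers of other cell types were detected in part, and some were bright. Itgam lay at a scaled log2 signal of 4.67 in A-CEBP cells and 4.43 in GFP cells. Kdr lay at 2.98 in A-CEBP cells and 2.89 in GFP cells, and Krt18 at 1.84 and 2.48. Leukocyte markers were detected for 3 of 5 with a probe, with Ptprc and Adgre1 not well above background on either array, and their summed signal was 27.9 in A-CEBP cells and 24.2 in GFP cells, most of it Itgam. Endothelial markers were detected for 2 of 5 (8.01 in A-CEBP cells and 7.54 in GFP cells), with Cdh5, Tek and Tie1 not well above background. Epithelial markers were detected for 4 of 5 in A-CEBP cells and 3 of 5 in GFP cells (3.82 and 5.78), with Epcam not well above background. Of these, Krt8 (-1.03), Krt18 (-0.63) and Krt14 (-0.41) were lower in A-CEBP cells, and Cdh1, detected in A-CEBP cells only, was at least 2.59-fold higher. Adipocyte markers were detected for 2 of 4 in A-CEBP cells and 0 of 4 in GFP cells, with sums of 0.11 and 0.094. Skeletal muscle markers were detected for 1 of 5 in each, with a sum of 0.24 in each. The sums in this paragraph include readings not well above background.

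The samples shared 1 slide and 1 scan, so neither separated the groups. The array holds 59305 non-control spots, and 58.0% of them were detected in A-CEBP cells and 54.6% in GFP cells, with 75th percentiles of 906 and 872 units and no saturated spot.

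**Figure D4:**
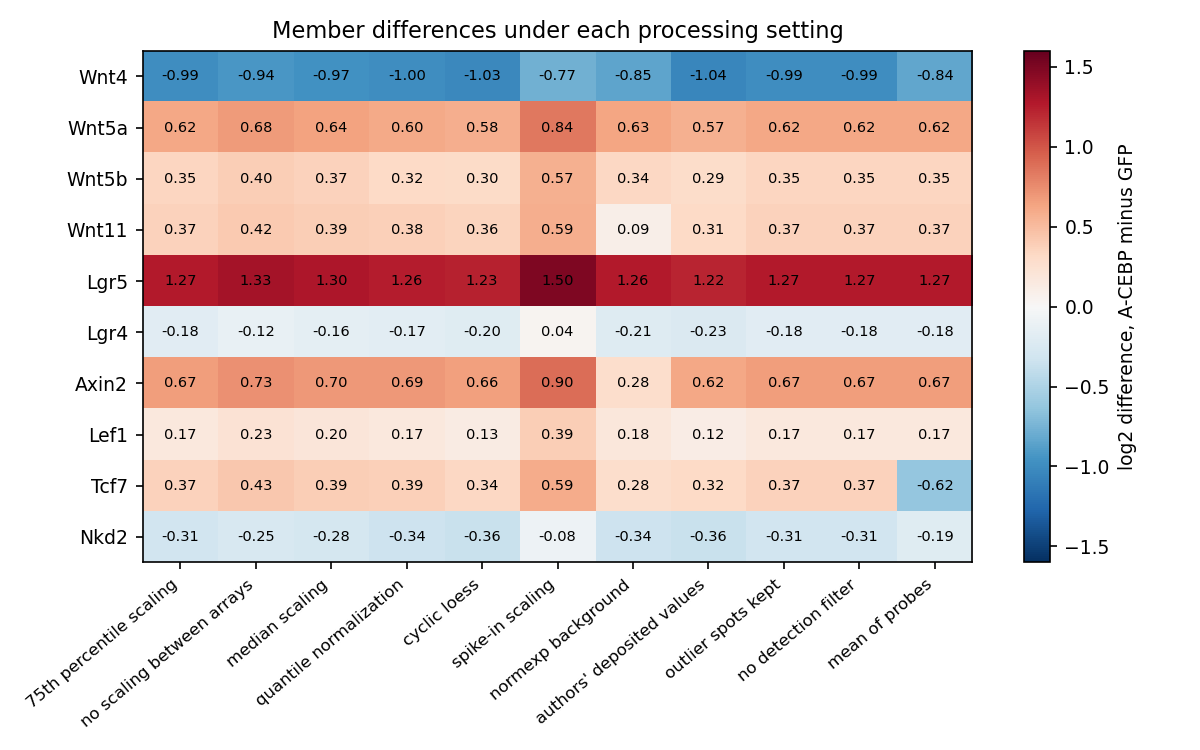
Log2 difference, A-CEBP minus GFP, of each member gene (rows) under 75th percentile scaling and 10 other processing settings (columns); red is higher and blue lower in A-CEBP cells. Lgr5 ranges from 1.22 to 1.496 and Wnt4 from -1.04 to -0.77, while Tcf7 changes sign when its probes are averaged and Lgr4 with spike-in scaling.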

How the data were processed

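Per the labels, 0.1 µg total RNA was made into Cy3-labelled cRNA for 1-colour Agilent mouse arrays. The authors' deposited scanner files hold spot intensity after background subtraction and spatial detrending, per the file headers, by Agilent Feature Extraction (10.10.1.1, per the submitters' processing notes). The authors' deposited value table is that intensity times 1 constant per array, 1.15 for A-CEBP and 1.24 for GFP, on a linear scale, not centred, with column medians of 67.4 and 70.9. The choice of constants is not stated in the labels.

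From the processed intensity, log2 was taken and each array's 75th percentile over non-control spots subtracted. Control spots and 293 outlier spots were left out, and values were averaged over the spots of each probe. A probe was well above background when over 50% of its spots were marked so. Probes were named through RefSeq transcripts (GRCm38.p6), which matched 48.9% of 55671 probes. The number of arrays limits the precision.

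The members and lists were chosen with earlier results of these data known. All members are named. From each pathway list, genes at least 2-fold apart and up to 3 others with the largest differences are named, with the 3 genes nearest in signal to the highest and lowest member. Ctnnb1, Apc, Axin1, Ror2 and the markers are named as context, and 1 leukocyte marker is not reported here. Code was tested on simulated data. Alternatives covered scaling, background, filters and probe choice, with limma 3.58.1 in R 4.3.3 for normexp (offset 50, on the median spot signal, since the files hold no mean signal), quantile and cyclic loess, and Python 3.11.15 otherwise.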

Additional observations from a re-analysis of the deposited data

How the results depend on the processing

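Of 100 member values under 10 alternatives, 27 could not move, because no member probe was an outlier, the standing probes were all detected, or only 1 probe was measured. Of the other 73, 63 moved by less than their scanner error. No scaling, median scaling and the authors' deposited values each shift all members by about 1 constant. Those constants are below the smallest scanner error, 0.20, so these settings were bound to be counted among the 63. Lgr5 stayed at least 2-fold higher under the 7 alternatives that could move it (1.22 to 1.496). Wnt4 stayed lower under the 8 that could move it and passed 2-fold with cyclic loess (-1.03) and the authors' deposited values (-1.04). With scaling on spike-in spots, which adds a constant to every difference and raised the median of all genes to 0.27, the values were Wnt4 -0.77, Wnt5a 0.84, Wnt5b 0.57, Lgr5 1.496, Lef1 0.39, Tcf7 0.59 and Nkd2 -0.085, the dimmer Nkd2 probe turned to 0.15, and 350 genes were at least 2-fold higher against 174. List medians became 0.58 for the members and for the ligands, 0.0798 for secretion, which turned sign, 0.61 for Frizzled and LRP, 0.52 for noncanonical, 0.36 for R-spondin, 0.24 for cytoplasmic, 0.39 for TCF/LEF, 0.57 for targets, 0.61 for inhibitors and 0.39 for the other pathway genes. The cytoplasmic median was -0.03 with cyclic loess and with the authors' deposited values. With spike-in scaling 173 genes were at least 2-fold lower, against 236. With normexp background Wnt11 was at 0.0876, Axin2 at 0.28 and the dimmer Tcf7 probe at -0.77, and 97 genes were higher. Without the detection filter 603 genes were higher and 883 lower, since dim probes then enter, and the ligand median was 0.0073. The mean of the probes put Tcf7 at -0.62, since its probes disagree. The cause of the normexp shifts was not tested. No paired analysis was possible because each group held 1 sample, and no replicate could be left out. Wnt11, Axin2, Lgr4 and the dimmer Tcf7 probe were dim, with the largest scanner errors among the member probes detected on both arrays.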
